A study of Rattus norvegicus with 9 samples.

Results

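In PC12 cells, 36 Ensembl genes were close to silent in every control library and were expressed in every library from cells deprived of oxygen and glucose and then given oxygen again (OGD/R), with or without miR-483-5p mimics. These genes were selected on their measured values: each had at most 0.5 FPKM in all 3 control libraries and at least 1 FPKM in all 6 treated libraries, and they are 36 of the 22037 Ensembl genes listed. FPKM, a fragment count scaled by transcript length and library size, is a level corrected for transcript length, so that levels of different genes can be compared. The selection rule also named 8 identifiers to leave out, of which 0 were within these limits, so none was removed. The files give identifiers without gene names, and the RefSeq gene table used here matched 0 of the 36. The roles of these genes are therefore not given, and each gene is called below by its rank, from 1 to 36, in mean FPKM over the 6 treated libraries.

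PC12 is a cell line from a rat adrenal medullary tumor, and differentiated PC12 cells served here as a model of neurons in culture. There were 3 libraries in each of 3 groups, namely untreated control cells, cells exposed to OGD/R, and cells that received miR-483-5p mimics by transfection before OGD/R (OGD/R+miR-483-5p). Both treated groups spent 4 h at 1% oxygen without glucose and then 6 h in normal medium with oxygen, and the mimics were given 48 h before the deprivation. The labels describe transfection for the mimic group alone, so an effect of the mimics and an effect of transfection cannot be told apart in these libraries. Markers of PC12 cells and of other cell types could not be read, because the identifiers carry no names.

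Deprivation of oxygen and glucose limits the ATP that cells make by respiration and by glycolysis, and the return of oxygen produces reactive oxygen species. Cells answer such an insult by transcribing genes that are kept at a very low level without stress, through transcription factors activated by heat shock signals, low oxygen, unfolded protein, DNA damage or kinase cascades. A microRNA acts later, on the messenger RNA: its seed, near the 5′ end, pairs with target transcripts and lowers their stability or translation. The mature rat sequence is shown because the mimics carry its name. The sequence of the mimics themselves is not given in the sources used here. RefSeq places it on the minus strand of chromosome 1, at chr1:207247903-207247924 of the GRCr8 build, within the span of the Igf2 gene, which encodes insulin-like growth factor 2. The capitals mark the seed, bases 2 to 8 of 22.
rno-miR-483-5p: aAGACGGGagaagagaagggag

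The libraries of a treated group were not alike in how many silent genes they switched on. Of the 22037 Ensembl genes, 10131 had at most 0.5 FPKM in all 3 control libraries. Among these 10131 genes, 73 and 74 reached 1 FPKM in OGD/R replicates 1 and 2, against 178 in OGD/R replicate 3. In the mimic libraries, 163, 155 and 107 reached it in replicates 1, 2 and 3. OGD/R replicate 3 thus stood apart from its group and fell above all 3 mimic libraries in this count. At least 1 treated library reached 1 FPKM for 276 of the 10131 genes, all OGD/R libraries did for 39, all mimic libraries did for 71, and all 6 did for the 36 described here, which is 0.355% of the silent genes. Without OGD/R replicate 3 the same limits gave 42 genes, and without OGD/R replicate 2 they gave 45. The opposite pattern, at least 1 FPKM in all controls and at most 0.5 FPKM in all treated libraries, was found for 25 Ensembl genes.

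**Figure D1:**
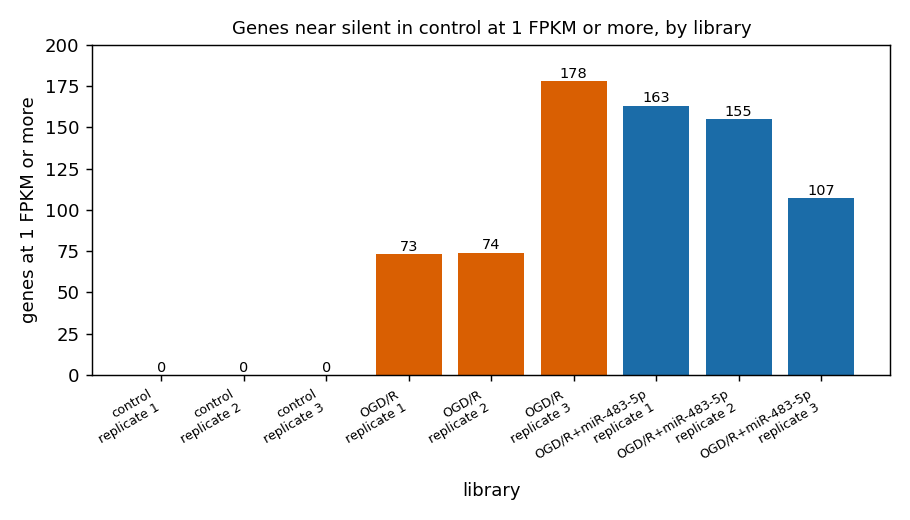
Number of Ensembl genes at 1 FPKM or more (y axis) in each of the 9 libraries (x axis), among the 10131 genes at 0.5 FPKM or less in all 3 controls; the controls are at 0 by construction. OGD/R replicates 1 and 2 reach 73 and 74 genes, OGD/R replicate 3 reaches 178, and the mimic libraries reach 163, 155 and 107.

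The depth of the libraries is not given by FPKM values. The steps between low values gave a rough depth relative to control replicate 1 of 0.785 and 0.993 for the other controls, of 1.09 to 1.20 for OGD/R libraries and of 1.06 to 1.32 for mimic libraries. The controls were thus the shallower libraries, and a single fragment weighs more in them. The controls listed 15792 to 16017 features above 0, and the treated libraries 16506 to 17242. The part of depth in the number of genes reaching 1 FPKM was not tested.

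The 36 genes were switched on to low or moderate levels. Their mean in the controls ranged from 0 to 0.41 FPKM, with a median of 0.147 FPKM over the genes. After OGD/R the mean ranged from 1.05 to 7.46 FPKM (median 2.10), and with mimics from 1.31 to 8.92 FPKM (median 2.24). Over the 6 treated libraries, 5 genes had a mean of at least 5 FPKM, 14 lay between 2 and 5 FPKM, and 17 lay under 2 FPKM. In bulk RNA, more cells that express a gene and more RNA per cell cannot be told apart. Since these values chose the genes, the differences from control are described without a test. For 35 genes with a control value above 0, the OGD/R mean was 4.50 to 160 times the control mean (median 14.5). The highest ratio, of rank 13, rests on a single control value of 0.05 FPKM, with 0 listed in the other controls, and is no exact fold. On the log2(FPKM + 0.1) scale, which understates the change of low genes, the median difference over the 36 was 3.26, beside -0.06 over all 19394 features tested. All 36 had an adjusted p under 0.05 for a higher level after OGD/R in the limma fit, as did 16.1% of all features, but nothing can be read from this, because the same values selected them.

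**Figure D2:**
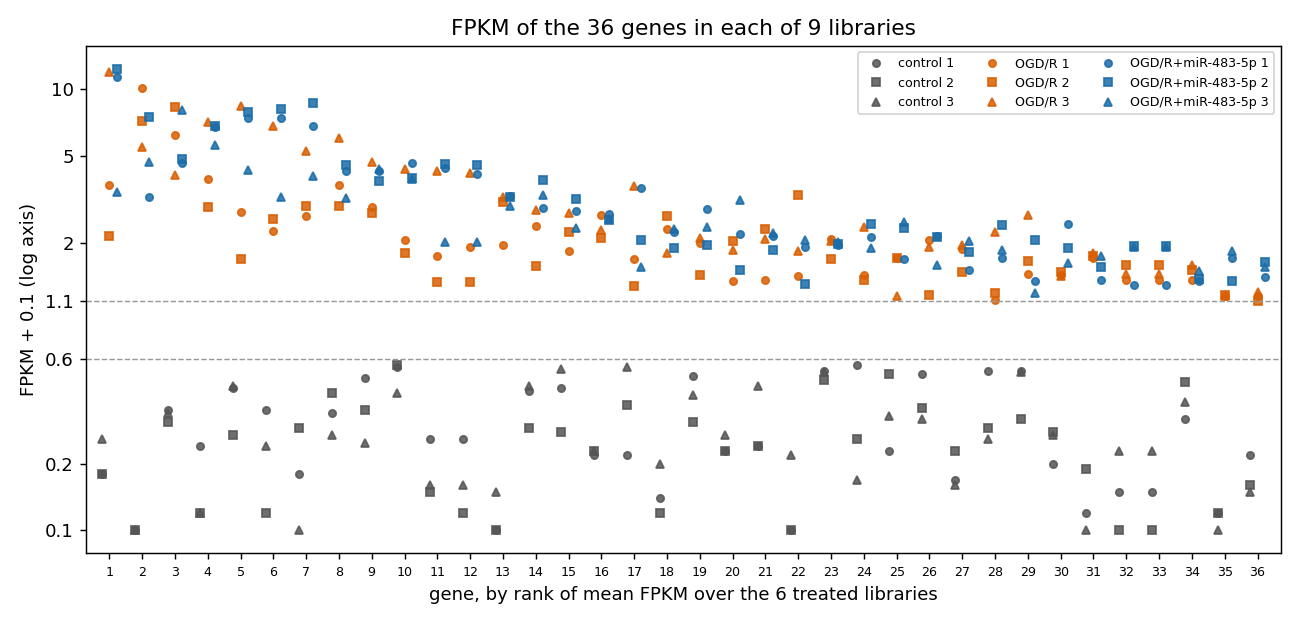
FPKM + 0.1 on a log axis (y axis) for each of the 36 genes (x axis, by rank of mean FPKM over the treated libraries) in the 9 libraries; color gives the group, the marker shape gives the replicate, and the dashed lines are the selection limits of 0.5 and 1 FPKM with 0.1 added. Control points reach at most 0.46 FPKM, and treated points run from 1 to 12.24 FPKM.

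The gene with the clearest change from silence was ENSRNOG00000054614 (rank 2), which was listed at 0 in all 3 control libraries. It stood at 9.99, 7.04 and 5.34 FPKM in the OGD/R libraries, or 7.46 ± 2.35 FPKM (SD, n = 3), and at 3.16, 7.40 and 4.59 FPKM in the mimic libraries. Its level therefore varied over the treated libraries, and both treated groups overlapped. No fold is given against a group listed at 0. With the pseudocount of 0.1, the next largest log2 difference belonged to ENSRNOG00000022099 (rank 4), at 0.14, 0.02 and 0.02 FPKM in control cells. After OGD/R it was at 3.80, 2.83 and 7.02 FPKM, and with mimics at 6.61, 6.73 and 5.48 FPKM. Its log2 difference of OGD/R from control was 4.84 with a standard error of 0.38, and its lowest treated value was 20.2 times its highest control value. With a pseudocount of 0.01 it was 6.37, below the 7.16 of rank 13, so the order of these genes depends on the pseudocount.

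Other genes were nearly as silent in the controls. The gene of rank 13 was listed at 0, 0 and 0.05 FPKM in control cells and at 1.86, 2.99 and 3.14 FPKM in the OGD/R libraries, a log2 difference of 4.56 with a standard error of 0.27. The gene of rank 35 was at 0.02, 0.02 and 0 FPKM in control cells and at 1.05, 1.07 and 1.05 FPKM in the OGD/R libraries. The distance between its groups was the widest of the genes with a control above 0, since its lowest treated value was 52.5 times its highest control value. The gene of rank 22 was listed at 0, 0 and 0.12 FPKM in control cells, and at 1.32, 3.22 and 1.74 FPKM in the OGD/R libraries. In all, 28 genes had values above 0 in all 3 controls, 5 were listed at 0 in 1 control library, 2 in 2 libraries, and 1 in all 3. A value of 0 may also come from an estimate that failed, so it is given as listed.

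The smallest differences came from genes with a measurable control level. The gene of rank 23 was at 0.43, 0.38 and 0.42 FPKM in control cells and at 1.99, 1.59 and 1.95 FPKM in the OGD/R libraries, a log2 difference of 1.93 with a standard error of 0.18. With mimics it was at 1.87, 1.88 and 1.92 FPKM, so its 6 treated libraries were tightly grouped. Rank 34 was at 0.22, 0.37 and 0.28 FPKM in control cells and at 1.26, 1.41 and 1.49 FPKM in the OGD/R libraries, a log2 difference of 1.95 with a standard error of 0.22. Rank 29 was at 0.43, 0.22 and 0.42 FPKM in control cells and at 1.35, 1.57 and 2.58 FPKM in the OGD/R libraries. These 3 genes changed least among the 36, and the control and treated libraries still did not overlap, as the selection required.

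The limits themselves fell in a continuous range of values. Just inside the control limit, the highest control value was 0.46 FPKM in 2 genes and 0.45 FPKM in 1 more, and just outside it stood genes with 0.52, 0.52 and 0.53 FPKM. Just inside the treated limit, the lowest treated value was 1, 1.01 and 1.05 FPKM, and just outside it stood 3 genes at 0.99 FPKM. Genes on either side of a limit thus had nearly the same values.

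The genes differed among themselves in how even their treated libraries were. The ratio of the highest to the lowest OGD/R library ranged from 1.02 to 5.71 (median 1.77), and that of the mimic libraries from 1.03 to 3.68 (median 1.43). The ratio was at least 2 in 12 genes after OGD/R, in 8 genes with mimics, and in 5 genes in both groups. It was under 1.5 in both groups for 8 genes.

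The gene with the highest mean, rank 1, was also the most uneven. It was at 0.08, 0.08 and 0.16 FPKM in control cells and at 3.59, 2.07 and 11.83 FPKM in the OGD/R libraries, or 5.83 ± 5.25 FPKM (SD, n = 3). With mimics it was at 11.20, 12.24 and 3.33 FPKM. The values were high in OGD/R replicate 3 and mimic replicates 1 and 2 and low in the other 3 treated libraries, so each treated group held both high and low libraries. Rank 5 had the same high libraries, at 2.66, 1.59 and 8.25 FPKM in the OGD/R libraries and 7.31, 7.77 and 4.19 FPKM in the mimic libraries. Rank 6 was at 2.18, 2.47 and 6.68 FPKM in the OGD/R libraries and at 7.30, 8.01 and 3.15 FPKM in the mimic libraries. Rank 17 was at 1.60, 1.18 and 3.55 FPKM in the OGD/R libraries and at 3.46, 1.97 and 1.47 FPKM in the mimic libraries, and its OGD/R libraries differed 3.01 times.

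Ranks 8, 9 and 10 were less uneven. Rank 8 had 0.24, 0.32 and 0.17 FPKM in control cells, 3.56, 2.85 and 5.88 FPKM in the OGD/R libraries, and 4.14, 4.44 and 3.12 FPKM in the mimic libraries. Rank 9 had 0.39, 0.25 and 0.15 FPKM in control cells, 2.82, 2.64 and 4.59 FPKM in the OGD/R libraries, and 4.14, 3.73 and 4.24 FPKM in the mimic libraries. Rank 10 had 0.45, 0.46 and 0.32 FPKM in control cells, 1.98, 1.70 and 4.26 FPKM in the OGD/R libraries, and 4.51, 3.87 and 3.80 FPKM in the mimic libraries. All 3 were highest of their OGD/R libraries in replicate 3.

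Some genes ran the other way. Rank 3 was at 6.11, 8.22 and 3.98 FPKM in the OGD/R libraries and at 4.54, 4.72 and 7.95 FPKM in the mimic libraries, from 0.25, 0.21 and 0.24 FPKM in control cells. It was lowest in OGD/R replicate 3 and highest in OGD/R replicate 2 and mimic replicate 3. Rank 22 was highest in OGD/R replicate 2, at 3.22 FPKM, and at 1.83, 1.21 and 1.98 FPKM in the mimic libraries. Rank 25 was lowest in OGD/R replicate 3, at 1.06 FPKM beside 1.62 and 1.61 FPKM in replicates 1 and 2, and stood at 1.59, 2.25 and 2.40 FPKM in the mimic libraries.

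A further set was even throughout. Rank 16 was at 0.12, 0.13 and 0.13 FPKM in control cells, 2.58, 2.02 and 2.21 FPKM in the OGD/R libraries, and 2.62, 2.46 and 2.49 FPKM in the mimic libraries. Rank 18 was at 0.04, 0.02 and 0.10 FPKM in control cells, 2.22, 2.56 and 1.71 FPKM in the OGD/R libraries, and 2.16, 1.80 and 2.22 FPKM in the mimic libraries. Rank 27 was at 0.07, 0.13 and 0.06 FPKM in control cells, 1.79, 1.38 and 1.86 FPKM in the OGD/R libraries, and 1.42, 1.73 and 1.96 FPKM in the mimic libraries. These genes reached similar levels in all treated libraries, with no library standing apart.

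Counted over all 36 genes, OGD/R replicate 3 was the highest of its 3 libraries for 22 genes, beside 33.2% of the 11798 features averaging 1 FPKM or more. Mimic replicate 3 was the lowest of its 3 for 16 genes, beside 25.5% of those features, and OGD/R replicate 2 the lowest of its 3 for 17, beside 27.8%. Of all 6 treated libraries, mimic replicate 2 was the highest for 12 genes and OGD/R replicate 2 the lowest for 17. The share over all features was not computed for these counts over 6 libraries. The median over the 36 genes was 1.81, 1.60 and 2.25 FPKM in OGD/R replicates 1 to 3, and 2.49, 2.28 and 2.18 FPKM in mimic replicates 1 to 3. The genes share libraries, so these counts describe the libraries and are not replicate tests.

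**Figure D3:**
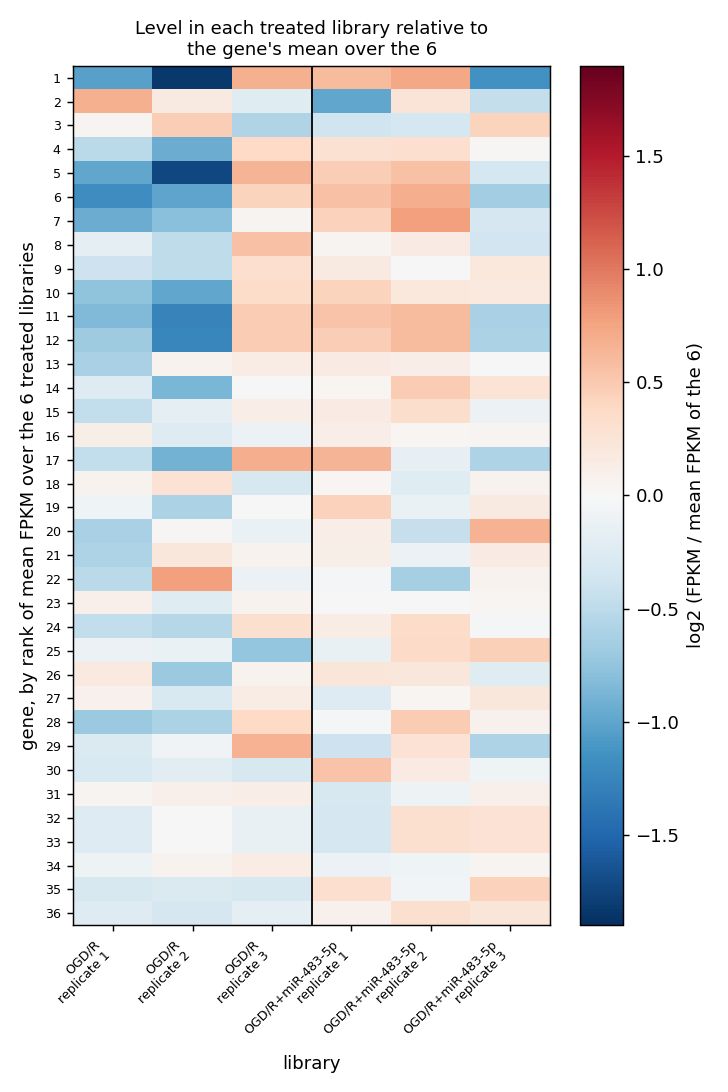
Color gives log2 of FPKM over the gene's own mean of the 6 treated libraries, with the genes in rows by rank and the treated libraries in columns; the black line parts OGD/R from OGD/R+miR-483-5p. Rank 1 runs from 2.07 FPKM in OGD/R replicate 2 to 12.24 FPKM in mimic replicate 2, rank 3 is lowest in OGD/R replicate 3 and highest in OGD/R replicate 2, and rank 23 is nearly even.

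The mimic and OGD/R groups were compared gene by gene. The selection used the values of both groups, because a gene under 1 FPKM in any treated library was removed, so the differences below describe the genes that were kept and are not independent of the selection. Of the 36 genes, 0 passed an adjusted p of 0.05 for mimics against OGD/R in the limma fit over 19394 features, and their smallest adjusted p was 0.733. Over all features the number was also 0, with a smallest adjusted p of 0.0511. At an unadjusted p under 0.05 stood 0 of the 36 genes, beside 6.87% of all features, and 0 of the 36 met the criteria in the study's methods (a log2 ratio of 1 or more in size and an unadjusted p below 0.05), beside 0.82% of all features. The study applied these criteria to edgeR results. Here they were applied to limma values of log2(FPKM + 0.1), so the counts are not those of the study's own test. The log2 difference of mimics from OGD/R ranged from -0.59 to 0.89, with a standard error of 0.18 to 0.66. It was above 0 for 28 of the 36 genes, or 77.8%, and its median was 0.29. The values were 50.1% and 0 over all features, which were not selected in this way, so nothing is read from the difference. Every 95% interval included 0, and the lowest bound was -1.35 (rank 2) and the highest 2.28 (rank 1). Without OGD/R replicate 3, 6 of the 36 genes had an unadjusted p under 0.05, or 16.7%, and so did 16.7% of all features. In the same setting 4 of the 36 met the methods' criteria, or 11.1%, beside 1.99% of all features, the median was 0.41, and the smallest adjusted p among the 36 in limma was 0.125. With a pseudocount of 1, 7 of the 36 had an unadjusted p under 0.05, or 19.4%, beside 7.02% of all features.

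The largest difference upward with mimics belonged to rank 5, whose values in the treated libraries are given above. Its log2 difference was 0.89 with a standard error of 0.54 (adjusted p = 0.821 in limma), which ran from 0.39 when OGD/R replicate 2 was left out to 1.54 when replicate 3 was, and OGD/R replicate 3, at 8.25 FPKM, was above every mimic library. Rank 5 did not keep the first place in every setting, since it lay below rank 7 (0.73), rank 6 and rank 10 when OGD/R replicate 2 was left out, and at 1.17, below rank 1 (1.37) and rank 6 (1.18), when mimic replicate 3 was left out. The next was rank 7, at 0.08, 0.19 and 0 FPKM in control cells, 2.57, 2.86 and 5.12 FPKM in the OGD/R libraries and 6.68, 8.51 and 3.95 FPKM in the mimic libraries, a log2 difference of 0.84 with a standard error of 0.45 (adjusted p = 0.803 in limma). In both genes the treated groups overlapped. The largest difference downward belonged to ENSRNOG00000054614 (rank 2), at -0.59 with a standard error of 0.33 (adjusted p = 0.807 in limma). It ran from -0.90 to -0.30 when a library was left out, and without OGD/R replicate 1, at -0.36, it was no longer the lowest, since rank 22 lay at -0.51 and rank 29 at -0.50. With mimic replicate 1 left out, rank 2 lay at -0.30 and rank 22 at -0.32. The next was rank 29, at 1.35, 1.57 and 2.58 FPKM in the OGD/R libraries and 1.25, 1.98 and 1.09 FPKM in the mimic libraries, a log2 difference of -0.32 with a standard error of 0.34 (adjusted p = 0.855 in limma), which ran from -0.56 to -0.06 when a library was left out. Rank 31, also among the 5 lowest, was at 1.61, 1.66 and 1.71 FPKM in the OGD/R libraries and at 1.26, 1.46 and 1.66 FPKM in the mimic libraries, a log2 difference of -0.18 with a standard error of 0.27, which ran from -0.27 to -0.09 when a library was left out. The 95% intervals of these 5 differences all included 0.

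**Figure D4:**
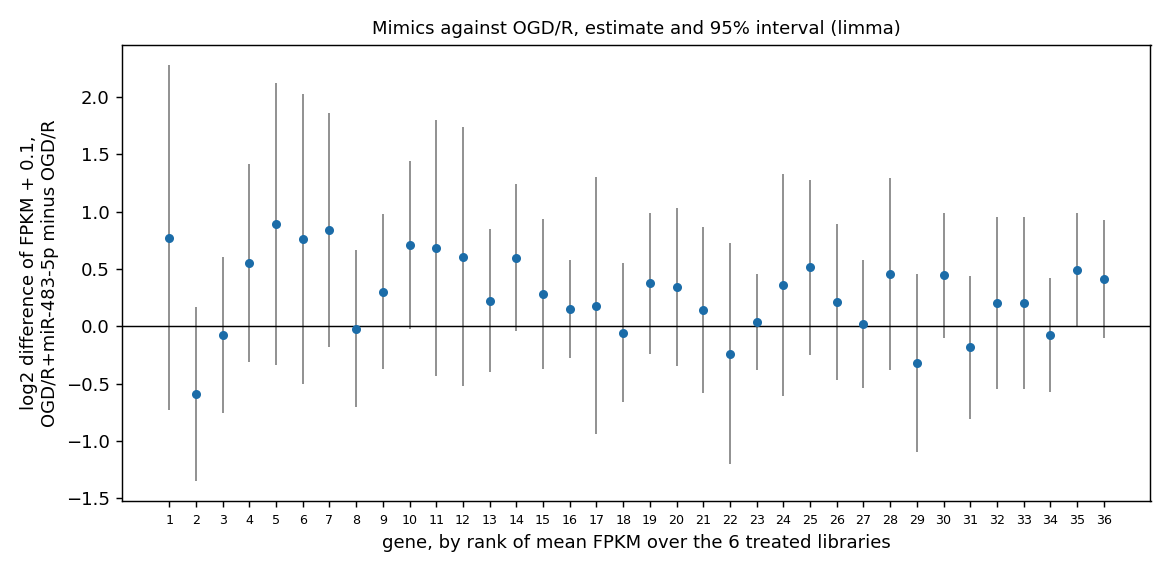
Log2 difference of FPKM + 0.1 between OGD/R+miR-483-5p and OGD/R (y axis) for each of the 36 genes (x axis, by rank), as the limma estimate with its 95% interval. Estimates run from -0.59 (rank 2) to 0.89 (rank 5), 28 lie above 0, and every interval includes 0.

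The mimic and OGD/R libraries did not overlap for 4 of the 36 genes, or 11.1%, beside 8.41% of all features, and in all 4 the mimic libraries were higher. Rank 14 was at 2.29, 1.48 and 2.72 FPKM in the OGD/R libraries and at 2.78, 3.77 and 3.23 FPKM in the mimic libraries. Rank 30 was at 1.33, 1.39 and 1.32 FPKM in the OGD/R libraries and at 2.35, 1.81 and 1.53 FPKM in the mimic libraries. Rank 36 was at 1.05, 1 and 1.1 FPKM in the OGD/R libraries and at 1.31, 1.54 and 1.46 FPKM in the mimic libraries. The last of the 4, rank 35, was at 1.62, 1.25 and 1.75 FPKM in the mimic libraries, above the OGD/R values of 1.05 to 1.07 FPKM given above. Ranks 35 and 36 stood at the selection limit after OGD/R, where a lower value would have removed them. The share of 11.1% is near that of all features and is no result about the 36 genes.

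Not all 36 genes were separate measurements. The genes of rank 32 and rank 33 had identical values in all 9 libraries: 0.05, 0 and 0.13 FPKM in control cells, 1.26, 1.5 and 1.36 FPKM in the OGD/R libraries, and 1.20, 1.85 and 1.82 FPKM in the mimic libraries. Among the 15995 features above 0 in at least 6 libraries, 80 fell into 38 such sets of identical values. Genes with near-identical copies can share fragments, and how such fragments were divided was not tested, so both levels are uncertain. The genes of rank 11 and rank 12 were also close. Rank 11 was at 0.16, 0.05 and 0.06 FPKM in control cells, 1.65, 1.23 and 4.14 FPKM in the OGD/R libraries, and 4.29, 4.48 and 1.93 FPKM in the mimic libraries. Rank 12 was at 0.16, 0.02 and 0.06 FPKM, then 1.83, 1.23 and 4.07 FPKM, then 4.02, 4.42 and 1.93 FPKM. Their treated values differed by at most 1.11 times, and no other pair of different values came closer than 1.20 times. Whether these pairs share sequence was not tested.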

How the data were processed

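RNA was sequenced from 9 libraries, 3 in each of 3 groups, and the labels gave each library's group and number. According to the methods, the authors removed poly-N, adapter and low-quality reads and ran RSEM, and the deposited values are FPKM to 2 decimals. The submitters' processing notes name Bowtie2 (2.3.3.1) and Cufflinks (2.2.1) without their roles. The genome build and annotation are not given in the sources used here. Of the library kits in the labels, it is not stated which served which library. A detail of the culture is left out.

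From the FPKM values, log2(FPKM + 0.1) of all 9 libraries was fitted with limma (version 3.58.1, R 4.3.3; lmFit, eBayes with trend), with 3 groups and no block. P-values are two-sided, adjusted by Benjamini-Hochberg over 19394 features (any library above 0). The fit was checked on simulated data. Nothing says that replicates are separate cultures, so p-values measure the spread between these libraries. Total depth is unknown, and the rough relative depths rest on 77 to 134 ratios between low values of each library and control replicate 1.

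The genes and the lists were chosen with earlier results of these data known. The genes described are the 12 highest by treated mean, the 5 highest and 5 lowest by difference of mimics from OGD/R, the 5 largest and 3 smallest by difference from control, and the 5 with the widest spread. Ranks 14, 16, 17, 18, 25, 27, 30, 32, 33, 35 and 36 were added after their values were seen. The planned gene lists, cell type markers and promoter motifs were not used, because 0 of the 22037 Ensembl identifiers matched the RefSeq gene table (GRCr8). Alternatives were other limits, pseudocounts (1 and 0.01), filters (mean FPKM of at least 0.1, none), quantile and upper-quartile scaling, fits of only the compared groups, a replicate block, and the omission of single libraries.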

Additional observations from a re-analysis of the deposited data

Results flagged for a closer look

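The files also list 1389 assembled loci, features with locus identifiers in place of Ensembl genes, which the selection left out. Of these, 13 met the same limits (0.936%, beside 0.163% of Ensembl genes). How loci came to be listed is not given in the sources used here, so nothing is read from the difference between these shares. The mean of the 13 loci over the treated libraries ranged from 1.28 to 4.4 FPKM (median 1.62), and 1 of them was listed at 0 in all 3 controls. OGD/R replicate 3 was the highest of its 3 libraries for 8 of the 13. Between mimics and OGD/R, 10 of the 13 lay above 0, beside 50.1% of all features, and 1 had an unadjusted p under 0.05 in limma, beside 6.87% of all features. The limits used the mimic and OGD/R values of these loci too, so nothing is read from these counts. Whether any of them overlaps one of the 36 genes was not tested, since the files give no coordinates.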

How the results depend on the processing

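The number of genes within the limits, 36, was 20 with a control limit of 0.25 FPKM, 89 with 1 FPKM, 9 with a treated limit of 2 FPKM and 119 with 0.5 FPKM. It was 39 after quantile normalization (35 of the 36 genes among them) and 47 after upper-quartile scaling (all 36 among them), and 36 to 45 when a library was left out. The median log2 difference of OGD/R from control over the 36 (3.26) was 1.29 with a pseudocount of 1, 3.85 with 0.01, and 2.98 to 3.30 when a library was left out.

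Between mimics and OGD/R, 0 of the 36 genes had an adjusted p under 0.05 in limma under any alternative run. Their number at an unadjusted p under 0.05 was 7 with a pseudocount of 1, 2 with a mean FPKM of at least 0.1, with upper-quartile scaling or with only the compared groups, 1 with no filter, and 0 to 6 when a library was left out. The methods' criteria were met by 0 to 4 when a library was left out. The median difference stayed between 0.22 and 0.41. Over all features, the number with an adjusted p under 0.05 was 9 with a pseudocount of 0.01, 12 with no filter, 2 with only the compared groups, and 0 to 21 when a library was left out. The methods' criteria (159 features) were met by 12 with a pseudocount of 1, by 439 with 0.01, and by 147 to 385 when a library was left out, and an unadjusted p under 0.05 (1333) by 1034 to 3238. The difference of mimics from OGD/R for rank 22 ran from -0.51 to 0.11 when a library was left out, above 0 without OGD/R replicate 2. For rank 3 it ran from -0.35 to 0.17, and lay at 0.17 without OGD/R replicate 2, and at 0.07 and 0.04 without mimic replicates 1 and 2. The other 8 of the 10 genes followed in this comparison kept their direction when a library was left out, though their size moved, for rank 5 from 0.39 to 1.54. The cause was not tested.

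For OGD/R against control, 8913 features passed an adjusted p of 0.05 in limma, and 7563 to 8952 did under the alternatives. Of those, 35.1% were higher after OGD/R, a share of 45.3% with quantile normalization and of 53.4% with upper-quartile scaling. With the replicate block, 8147 features were called there, and 0 of the 36 genes between mimics and OGD/R. Same-numbered OGD/R and mimic libraries deviated in opposite directions, with correlations of -0.17, -0.26 and -0.47. The correlations of control libraries were -0.03 to 0.05 with OGD/R and 0.0042 to 0.22 with mimic libraries. With 3 libraries in each group, these values cannot show whether same-numbered libraries share more than a number. Since total depth is unknown, no interval can be given for control values near 0.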

Other observations

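A further 35 near-silent Ensembl genes reached 1 FPKM in all 3 mimic libraries but not in all 3 OGD/R libraries. The limit was missed by 19 of them in OGD/R replicate 1, by 27 in replicate 2 and by 10 in replicate 3, and their median was 0.91, 0.69 and 1.63 FPKM in these libraries. With mimics the median of the 35 genes was 1.60, 1.67 and 1.27 FPKM. In the opposite case, 3 genes reached 1 FPKM in all OGD/R libraries but not in all mimic libraries. All 3 missed it in mimic replicate 3, at 0.87 to 0.97 FPKM, and 1 of them also missed it in mimic replicate 1, at 0.31 FPKM. These counts are set by a fixed limit and were not tested.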
